A study of Mus musculus with 11 samples.

Results

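The mitochondrial ribosomal proteins are the nuclear-encoded proteins of the mitoribosome, and their genes carry the symbols Mrpl (large subunit) and Mrps (small subunit) followed by a number. Members were the genes with such a symbol that had a probe set annotated to 1 gene only, and each was read from the brightest of its probe sets on average. This gave 77 genes, 48 Mrpl and 29 Mrps, of 19938 genes with a single-symbol probe set. The only other protein-coding gene of this name in the RefSeq table, Mrpl53, shares its probe set with another symbol and was not analysed here.

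RNA came from whole pancreas of wild-type C57Bl6J mice. The caerulein group, 6 arrays, had received 9 hourly intraperitoneal injections of caerulein, a peptide that overstimulates the acinar cells through the cholecystokinin receptor, at a dose that the series record gives as 50 mg/kg. The control group, 5 arrays, had received sodium chloride (NaCl), with 4 control mice in the series text against 5 control samples in the titles. The sources used here do not give the age or sex of the mice or when tissue was taken. The comparison asks how transcript levels in the pancreas differ between induced acute pancreatitis and control.

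Mitoribosomes translate the few proteins that mitochondrial DNA encodes, which are core subunits of the respiratory chain and of the ATP synthase. All of their proteins are encoded in the nucleus, made in the cytosol and imported, and inherited loss of single members causes combined respiratory chain deficiency. Some members descend from bacterial ribosomal proteins and others were gained in the mitochondrial lineage. Acinar cells, the main cell type of the pancreas, depend on mitochondrial ATP for enzyme secretion and for calcium clearance.

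Values are deposited log2 expression, 1 per probe set and array. Differences are given as caerulein minus NaCl on that scale, so that 1 means 2-fold, with the standard error (SE) from a limma fit to the 35556 probe sets. A gene passed at a Benjamini-Hochberg adjusted p under 0.05. Arrays correlated at 0.981 to 0.991 within groups and 0.938 to 0.955 between them. Array medians were 5.35 to 5.40 in NaCl and 5.20 to 5.25 in caerulein, and the median difference over all named genes was -0.13. The mean of 8 measured acinar markers was 12.24 to 12.47 in NaCl and 11.88 to 11.99 in caerulein, with 1 marker higher and 2 lower, against a highest value of 15.05 on any array. Of 8 monocyte and macrophage markers 6 were higher, with a list mean of 5.44 to 5.64 in NaCl and 6.33 to 7.25 in caerulein. Of 5 duct markers 3 were higher and 1 lower, with a list mean of 6.99 to 7.20 and then 8.16 to 8.44. Of 8 neutrophil markers 0 were higher and 1 lower, and of 6 T and NK cell markers 5 were lower. Under the rescalings 5 to 7 macrophage markers were higher and 1 to 6 T and NK cell markers lower. The neutrophil list mean was 4.65 to 4.80 in NaCl and 4.52 to 5.08 in caerulein, and that of T and NK cells 4.74 to 4.83 and 4.47 to 4.57. Both lay below the array medians, so these lists may hold background signal. Among all named genes with a mean level below 5, 28.3% were lower and 2.08% higher. The lowest value on any array was 1.95. The part of the markers in the results on the members was not tested. In whole tissue, fewer cells of a type and less RNA per cell cannot be told apart.

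The mitochondrial ribosomal protein genes did not move in 1 direction. In the large subunit 10 of 48 genes were higher (20.8%), 19 were lower (39.6%) and 19 did not pass. In the small subunit 5 of 29 were higher (17.2%), 12 were lower (41.4%) and 12 did not pass. Over all named genes 54.6% passed, 20.3% higher and 34.3% lower. As deposited, the shares of rises in both subunits, taken by symbol, were close to those of all named genes. The shares of falls were a little larger. These gaps were not tested, and all named genes were not matched to the members by level. With an equal array median 7 of the 48 large subunit genes were lower, against 14.1% of all named genes. The median difference was -0.022 in the large and -0.14 in the small subunit, against -0.13 for all named genes. For 10 of the 77 members all caerulein arrays exceeded all NaCl arrays, and for 18 all were below, against 16.7% and 20.6% of all named genes (37.2% without overlap). Differences ran from -0.84 to 0.50 in the large subunit and from -0.95 to 1.24 in the small subunit.

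**Figure D1:**
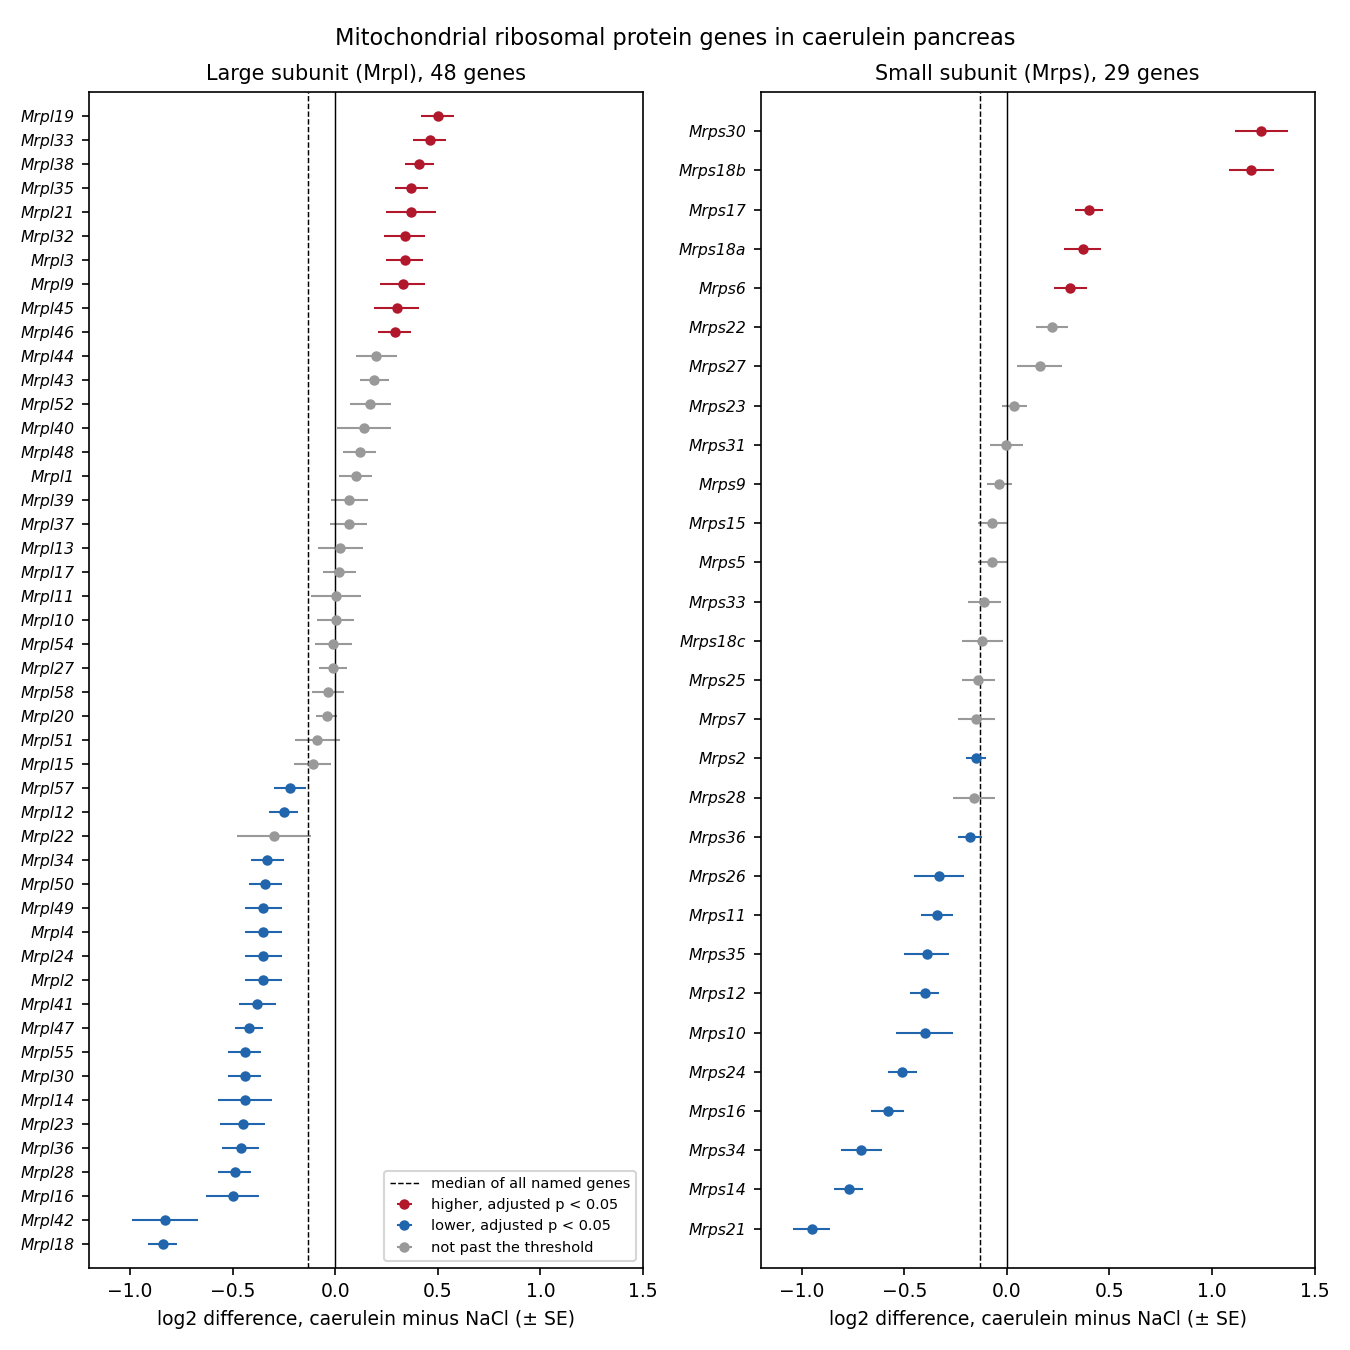
Log2 difference between caerulein and NaCl with its standard error for each of the 48 large and 29 small subunit genes, coloured by call, with the median of all named genes (-0.13) as a dashed line. Mrps30 (1.24) and Mrps18b (1.19) stand above all other members, and Mrps21 (-0.95) is the lowest.

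The balance of rises and falls depended on how the arrays were scaled. With an equal median on every array, 15 large subunit genes were higher and 7 lower, and 7 small subunit genes were higher and 6 lower. After cyclic loess normalisation the numbers were 9 and 17 in the large and 7 and 10 in the small subunit, and after a second quantile normalisation (requantiled arrays) 7 and 21 and 5 and 13. With an equal mean of 13 commonly used reference genes (the scaling list) they were 0 and 48 in the large and 2 and 27 in the small subunit. That last scaling moved the median of all named genes from -0.13 to -0.89, and 8 of its 13 reference genes were themselves higher as deposited, led by the actin gene Actb (2.93, SE 0.09, limma adjusted p = 1.4e-10). The equal median moved the median of all named genes to 0.015. The shares over all named genes moved with the scaling too, to 26.1% higher and 14.1% lower with an equal median, 21.9% and 18.2% after cyclic loess, 19.3% and 23.4% on requantiled arrays and 6.02% and 86.7% with the scaling list.

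**Figure D2:**
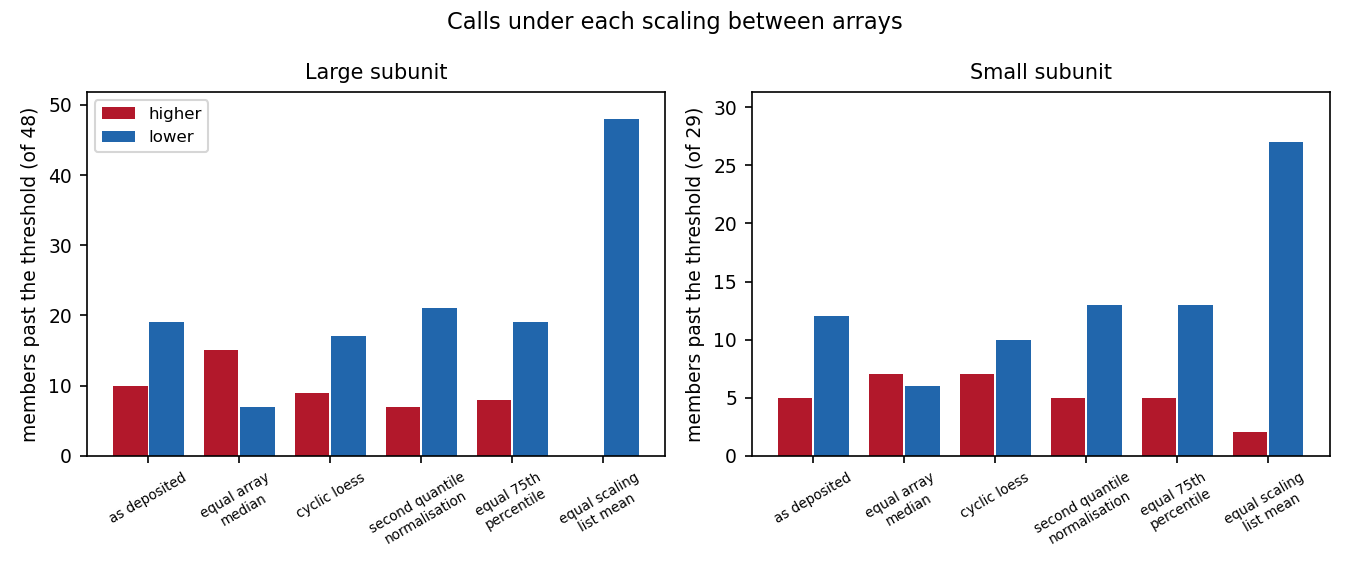
Number of large subunit (of 48) and small subunit (of 29) genes called higher or lower (limma adjusted p under 0.05) as deposited and under 5 rescalings. The falls outnumber the rises as deposited (19 against 10, and 12 against 5), the order turns with an equal array median, and only Mrps18b and Mrps30 stay higher with an equal scaling list mean.

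Of the 15 rises, those of Mrps18b and Mrps30 kept their call and direction under all 5 rescalings. Of the 31 falls, 13 did so, namely Mrpl18, Mrpl28, Mrpl30, Mrpl36, Mrpl42, Mrpl47 and Mrpl55 in the large subunit and Mrps12, Mrps14, Mrps16, Mrps21, Mrps24 and Mrps34 in the small subunit. Mrpl47 was read here from 1 of 2 probe sets, and the other did not pass as deposited (-0.064, limma adjusted p = 0.569). The rises of Mrpl3, Mrpl19, Mrpl21, Mrpl32, Mrpl33, Mrpl46, Mrps6 and Mrps17 kept their call under the 4 rescalings other than the reference gene mean. The other rises lost their call under 1 more rescaling or more, and the other falls under at least 1 rescaling. These 5 rescalings are not 5 equal checks. Equal 75th percentiles and the scaling list ended none of the 31 falls, and the scaling list lowered 86.7% of all named genes. The falls that stayed were those kept with an equal array median (7 of 19 and 6 of 12). The scaling list alone left only 2 of the 15 rises.

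Mrps30 and Mrps18b were the only members that passed with at least a 2-fold change (6.14% of all named genes rose and 1.44% fell by that much). Mrps30 encodes a protein gained in mitochondria that, despite its symbol, sits in the large subunit. Its NaCl arrays read 5.65, 5.62, 5.15, 6.04 and 5.40, and its caerulein arrays 6.67 to 6.89 with a median of 6.85. All caerulein arrays lay above all NaCl arrays. The mean rose from 5.57 ± 0.33 (SD, n = 5) to 6.82 ± 0.08 (SD, n = 6), a 2.37-fold difference (log2 1.24, SE 0.13, limma adjusted p = 5.3e-06). Mrps18b encodes a small subunit protein related to bacterial S18. Its NaCl arrays read 8.07, 7.86, 7.56, 7.55 and 7.43, and its caerulein arrays 8.76 to 8.99 with a median of 8.86, again without overlap. The rise was 2.28-fold (log2 1.19, SE 0.11, limma adjusted p = 1.7e-06).

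Mrps18b has 2 relatives among the members. Mrps18a, whose protein sits in the large subunit, had NaCl arrays at 6.66, 6.63, 6.83, 7.04 and 6.93 and caerulein arrays at 7.04 to 7.35 with a median of 7.19. It was 1.29-fold higher (log2 0.37, SE 0.09, limma adjusted p = 0.00393), a call that a second quantile normalisation ended (0.20, adjusted p = 0.102). Mrps18c, the other small subunit form, averaged 7.25 ± 0.22 in the 5 NaCl arrays and 7.13 ± 0.13 (SD) in the 6 caerulein arrays and did not pass (-0.12, SE 0.10, limma adjusted p = 0.373). It passed as lower on requantiled arrays (-0.34, adjusted p = 0.0168).

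The deepest fall of all members was also in the small subunit. Mrps21, the homologue of bacterial S21, had NaCl arrays at 8.47, 8.44, 8.25, 8.57 and 8.27 and caerulein arrays at 7.21 to 7.63 with a median of 7.49. The groups did not overlap, and the fall was 1.93-fold (log2 -0.95, SE 0.09, limma adjusted p = 3.4e-06). Mrps14, whose protein lies in the head of the subunit, read 7.56, 7.57, 7.44, 7.40 and 7.45 in NaCl and 6.58 to 6.83 with a median of 6.74 in caerulein. It was 1.70-fold lower (log2 -0.77, SE 0.07, limma adjusted p = 1.9e-06). Mrps34, a protein gained in mitochondria that the small subunit needs for its stability, read 7.76, 7.72, 7.30, 7.66 and 7.55 in NaCl and 6.56 to 7.03 with a median of 6.93 in caerulein. It was 1.64-fold lower (log2 -0.71, SE 0.10, limma adjusted p = 0.000131). For both genes every caerulein array lay below every NaCl array.

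**Figure D3:**
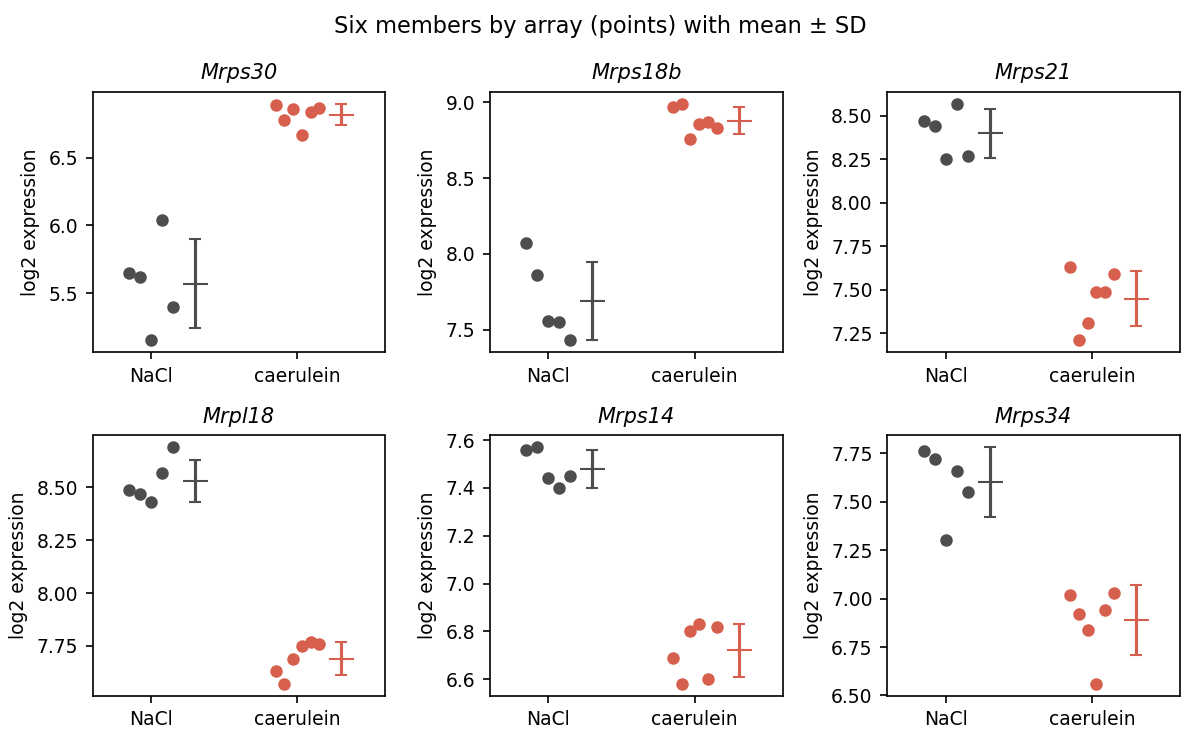
Log2 expression on each NaCl (5) and caerulein (6) array for the 2 largest rises and 4 of the largest falls, with group mean ± SD beside the points. The groups do not overlap for any of these 6 genes, and the NaCl arrays of Mrps30 spread over 5.15 to 6.04 while its caerulein arrays stay within 6.67 to 6.89. Not shown is Mrpl42, which fell more (-0.83) than Mrps14 and Mrps34. Its groups overlap (lowest NaCl array 4.72, highest caerulein array 4.76).

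Other small subunit genes were lower as well. Mrps12, whose protein lines the decoding centre, had NaCl arrays within 6.02 to 6.08 and caerulein arrays at 5.44 to 5.78, a 1.32-fold fall (log2 -0.40, SE 0.07, limma adjusted p = 0.000774). Mrps16, in which mutations cause a fatal infantile mitochondrial disease, was 1.49-fold lower (log2 -0.58, SE 0.08, limma adjusted p = 6.5e-05). Mrps24, the counterpart of bacterial S3 at the mRNA entry, was 1.43-fold lower (log2 -0.51, SE 0.07, limma adjusted p = 9.1e-05). All 3 had every caerulein array below every NaCl array, as did 20.6% of all named genes. Mrps10, Mrps11, Mrps26 and Mrps35 were lower by -0.40 to -0.33.

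Mrps2 was lower by only -0.15 (limma adjusted p = 0.0374). That call ended without any single array except NaCl replicate 4 or caerulein replicate 4 (adjusted p = 0.0542 to 0.0752), with an equal array median (-0.0037, adjusted p = 0.965) and with the replicate block (adjusted p = 0.141). Mrps36 carries a ribosomal symbol but encodes a subunit of the oxoglutarate dehydrogenase complex, and its difference of -0.18 (limma adjusted p = 0.0222) came at a level of 3.33 to 3.67 near the bottom of the array range. Its call ended without NaCl replicate 2 (adjusted p = 0.0523) or NaCl replicate 3 (adjusted p = 0.0511), with the replicate block (adjusted p = 0.0848) and under 3 rescalings (adjusted p = 0.134 to 0.673). The smaller rises in the small subunit were Mrps17 (log2 0.40, SE 0.07, limma adjusted p = 0.000766) and Mrps6 (log2 0.31, SE 0.08, limma adjusted p = 0.00926), both homologues of bacterial proteins. Their caerulein arrays, at 6.15 to 6.33 and 6.01 to 6.39, lay above all NaCl arrays.

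The 12 small subunit genes that did not pass were Mrps5, Mrps7, Mrps9, Mrps15, Mrps18c, Mrps22, Mrps23, Mrps25, Mrps27, Mrps28, Mrps31 and Mrps33. Mrps22, a mitochondrial disease gene, stood at 0.22 (SE 0.08, limma adjusted p = 0.0537) and passed as higher under 3 rescalings (0.29 to 0.36). It also passed without NaCl replicate 4 (adjusted p = 0.0456) or caerulein replicate 2 (adjusted p = 0.0223). Mrps27, a pentatricopeptide repeat protein, stood at 0.16 (SE 0.11, limma adjusted p = 0.259), with 1 NaCl array at 5.86 and the other 4 at 5.07 to 5.44. Without that array, NaCl replicate 2, it passed at 0.27 (adjusted p = 0.0201), and after cyclic loess normalisation at 0.35 (adjusted p = 0.0330). Mrps7, which contacts tRNA, had a difference of -0.15 (SE 0.09, limma adjusted p = 0.181) and passed as lower with equal 75th percentiles (-0.21), after cyclic loess (-0.28) and on requantiled arrays (-0.41). Mrps31 had the smallest difference in the subunit (-0.0032, SE 0.08).

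In the large subunit the deepest fall was that of Mrpl18, the homologue of a bacterial protein of the central protuberance. Its NaCl arrays read 8.49, 8.47, 8.43, 8.57 and 8.69 and its caerulein arrays 7.57 to 7.77 with a median of 7.72. The groups lay well apart, and the gene was 1.79-fold lower (log2 -0.84, SE 0.07, limma adjusted p = 6.4e-07). Mrpl42, a protein gained in mitochondria, was 1.77-fold lower (log2 -0.83, SE 0.16, limma adjusted p = 0.00136), with 5.42 on NaCl replicate 5 against 4.72 to 4.91 on the others and 4.76 on caerulein replicate 6 against 3.82 to 4.09. Its difference was -0.71 without the former and -0.95 without the latter. The mean level of Mrpl42, 4.50, lay below all array medians, so its values may hold background signal. Mrpl28 was 1.40-fold lower (log2 -0.49, SE 0.08, limma adjusted p = 0.000426), with NaCl arrays at 6.95 to 7.12 and caerulein arrays at 6.39 to 6.82. Mrpl36, the homologue of bacterial L36, was 1.38-fold lower (log2 -0.46, SE 0.09, limma adjusted p = 0.00136).

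Mrpl16, whose bacterial counterpart helps to position the incoming tRNA, had NaCl arrays at 6.25 to 6.62 and caerulein arrays at 5.59 to 6.33. It was 1.42-fold lower (log2 -0.50, SE 0.13, limma adjusted p = 0.00787), but the adjusted p was 0.0540 with an equal array median. Mrpl23 and Mrpl24 encode proteins around the exit of the nascent peptide tunnel. Mrpl23 was 1.37-fold lower (log2 -0.45, SE 0.11, limma adjusted p = 0.00584) without overlap, and Mrpl24 1.28-fold lower (log2 -0.35, SE 0.09, limma adjusted p = 0.00688) with overlap. Their adjusted p-values were 0.0537 and 0.117 with an equal array median. Mrpl45, which holds the large subunit to the inner membrane at the same exit, went the other way (log2 0.30, SE 0.11, limma adjusted p = 0.0381). Its call ended with equal 75th percentiles (adjusted p = 0.0719), with the replicate block (adjusted p = 0.104), and without NaCl replicate 2, 3 or 5 or caerulein replicate 3, 4, 5 or 6 (adjusted p = 0.0523 to 0.0973).

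The members of the stalk, which recruits the translation factors, gave different calls. Mrpl12, which also binds the mitochondrial RNA polymerase, read 7.17, 7.12, 7.26, 7.18 and 7.34 in NaCl and 6.83 to 7.13 in caerulein, so that the groups just overlapped. It was 1.19-fold lower (log2 -0.25, SE 0.07, limma adjusted p = 0.0112), but not with an equal array median (-0.10, adjusted p = 0.287) or with the replicate block (adjusted p = 0.0601). Its anchor Mrpl10 had almost equal means (0.0037, SE 0.09, limma adjusted p = 0.977). Its caerulein arrays spread over 7.22 to 7.84 around NaCl arrays of 7.53 to 7.62, and on requantiled arrays it passed as lower (-0.27, adjusted p = 0.0274). Mrpl11, beside them at the base of the stalk, was likewise near 0 (0.0046, SE 0.12, limma adjusted p = 0.977), with caerulein arrays at 6.08 to 6.90.

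The 10 large subunit rises were all below 1.5-fold. Mrpl19 led with NaCl arrays of 5.89, 5.93, 5.97, 5.85 and 5.69 and caerulein arrays of 6.21 to 6.52, a 1.42-fold difference (log2 0.50, SE 0.08, limma adjusted p = 0.000198). Mrpl33 was 1.38-fold higher (log2 0.46, SE 0.08, limma adjusted p = 0.000518) and Mrpl38, gained in mitochondria, 1.33-fold higher (log2 0.41, SE 0.07, limma adjusted p = 0.000543). The mean level of Mrpl33, 4.72, also lay below all array medians. Mrpl35 was 1.29-fold higher (log2 0.37, SE 0.08, limma adjusted p = 0.00161). These 4 genes had every caerulein array above every NaCl array, as did 16.7% of all named genes. A second quantile normalisation ended the calls of Mrpl35 and Mrpl38 (adjusted p = 0.0707 and 0.227). Mrpl3, next to the peptidyl transferase centre, was 1.26-fold higher (log2 0.34, SE 0.09, limma adjusted p = 0.0120), and Mrpl32, which a mitochondrial protease must trim before assembly, 1.27-fold higher (log2 0.34, SE 0.10, limma adjusted p = 0.0118). Both overlapped between groups through 1 NaCl array, at 6.59 and 5.70. Mrpl21 stood at 0.37 (SE 0.12, limma adjusted p = 0.0234), and its adjusted p was 0.0583 without NaCl replicate 3 and 0.0584 without NaCl replicate 4. Mrpl9 and Mrpl46 completed the group, at 0.33 and 0.29.

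Mrpl2, Mrpl4, Mrpl14, Mrpl30, Mrpl34, Mrpl49, Mrpl50, Mrpl55 and Mrpl57 were the remaining lower genes of the large subunit beside Mrpl41 and Mrpl47, at -0.44 to -0.22. Mrpl58, the peptidyl-tRNA hydrolase that frees stalled mitoribosomes, did not pass (-0.035, SE 0.08, limma adjusted p = 0.759), and its groups overlapped at 6.94 to 7.40 and 7.07 to 7.27. Mrpl44, which has an RNase III fold, did not pass (0.20, SE 0.10, limma adjusted p = 0.113) but did with an equal array median (0.34, adjusted p = 0.0164). The other genes that did not pass were Mrpl1, Mrpl13, Mrpl15, Mrpl17, Mrpl20, Mrpl22, Mrpl27, Mrpl37, Mrpl39, Mrpl40, Mrpl43, Mrpl48, Mrpl51, Mrpl52 and Mrpl54, at -0.30 to 0.19.

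The position of the members' probe sets was checked against the pseudogenes in RefSeq. The probe set numbers of this array largely follow gene order, and for 96.8% of all single-symbol probe sets at least 10 of the 20 nearest numbers belonged to genes of the same chromosome. For 5 members the probe set with the highest mean failed this check, which was devised with the data in view. The numbers around the probe set of Mrpl48 belonged to genes of chromosome 4, where RefSeq lists the pseudogene Mrpl48-ps, whereas Mrpl48 lies on chromosome 7. Those around the probe set used for Mrpl27 belonged to the chromosome of Mrpl27-ps in 19 of 20 cases. The probe sets used for Mrpl41, Mrpl51 and Mrps33 also had neighbours on other chromosomes, without such a pseudogene in the RefSeq table.

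A second probe set passed the check for 4 of the 5 members. For Mrpl41, linked to cell death as well as to the ribosome, the probe set used gave -0.38 (SE 0.09, limma adjusted p = 0.00327) and the other -0.17 (SE 0.08, adjusted p = 0.108). For Mrpl27 the values were -0.010 and -0.28, and neither passed (adjusted p = 0.923 and 0.0585). With the checked probe sets, and Mrpl48 left out, 10 large subunit genes were higher and 18 lower, and the small subunit counts were 5 and 12. Mrpl47 had 2 probe sets in its own neighbourhood that disagreed, at -0.42 (SE 0.07, limma adjusted p = 0.000223) and -0.064 (SE 0.09, adjusted p = 0.569). The 2 probe sets of Mrpl23 gave -0.45 and -0.48, the second among numbers from chromosome 2, where RefSeq lists Mrpl23-ps1.

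Members were also grouped by origin and by level. Of 48 homologues of bacterial proteins 11 were higher (22.9%) and 22 lower (45.8%), with a median difference of -0.15, against 20.3% and 34.3% of all named genes. Of 28 proteins gained in mitochondria 4 were higher (14.3%), 8 lower (28.6%) and 16 did not pass, with a median of 0.017. With an equal array median the counts were 12 and 11 for the homologues and 10 and 2 for the gained proteins, against 26.1% and 14.1% of all named genes. The difference between these classes was not tested. The members had mid-range levels, with a median of 6.51 on the log2 scale. Of the 25 members with a mean level from 7 to below 8, 4 were higher and 10 lower (median -0.086), whereas 54.0% of all named genes at that level were higher and 23.4% lower (median 0.30). Of the 32 members from 6 to below 7, 6 were higher and 12 lower (median -0.057), against 31.5% and 35.6% of all genes there (median -0.048). Of the 14 members from 5 to below 6, 3 were higher and 5 lower (median -0.089), against 9.23% and 49.0% of all genes there (median -0.23).

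With Mrps30 and Mrps18a counted in the large subunit, where their proteins sit, and Mrps36 left out, 12 of 50 large subunit genes were higher and 19 lower. The small subunit then had 3 of 26 higher and 11 lower. The mean over the 48 Mrpl genes was 6.58 to 6.66 on the NaCl arrays and 6.46 to 6.56 on the caerulein arrays, without overlap. Over the 29 Mrps genes it was 6.58 to 6.70 and 6.48 to 6.59, with the groups just overlapping. The mean over all named genes was 5.70 to 5.72 in both groups, although their median difference was -0.13. All these means are as deposited, with array medians of 5.35 to 5.40 in NaCl and 5.20 to 5.25 in caerulein. With an equal array median the median difference was 0.12 for the Mrpl genes and 0.0073 for the Mrps genes. No array stood apart from its group in either subunit mean.

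Many members share a promoter region with a neighbouring gene. Of 68 members with a promoter in the RefSeq-derived table (GRCm38.p6), 24 (35.3%) had a coding gene that starts within 1000 bases on the opposite strand and runs away from it, against 8.48% of 17492 coding genes. They formed 22 pairs with both genes measured. By this threshold 4 pairs changed in the same direction and 3 in opposite directions. In 7 pairs only the member changed, in 7 only the partner and in 1 neither gene. Over all named genes 54.6% passed, 20.3% higher and 34.3% lower, and the pair counts were not tested against these shares. The pairs of Mrpl27, Mrpl41 and Mrpl51 rest on member probe sets that failed the chromosome check. Mrpl18 and Tcp1, which encodes a subunit of the cytosolic chaperonin CCT, start 238 bases apart. Tcp1 rose from 8.77 to 9.05 on the NaCl arrays to 9.60 to 9.79 on the caerulein arrays (log2 0.77, SE 0.07, limma adjusted p = 1.5e-06), while Mrpl18 fell by 0.84. Mrpl14 and Tmem63b, an ion channel gene, were 131 bases apart at -0.44 (SE 0.13, limma adjusted p = 0.0177) and 0.85 (SE 0.08, limma adjusted p = 1.7e-06).

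The only pair made of 2 members was Mrpl46 and Mrps11, whose starts lie 42 bases apart. Mrpl46 rose from 5.76 to 6.05 on the NaCl arrays to 6.06 to 6.30 on the caerulein arrays (log2 0.29, SE 0.08, limma adjusted p = 0.00781). Mrps11 read 5.77 to 6.01 and 5.32 to 5.79 (log2 -0.34, SE 0.08, limma adjusted p = 0.00492), with the groups just overlapping. Pairs that changed together included Mrpl47 with the complex I gene Ndufb5 (-0.42 and -0.68) and Mrpl21 with the helicase gene Ighmbp2 (0.37 and 0.33). The other probe set of Mrpl47 did not pass (-0.064, limma adjusted p = 0.569), so that pair rests on 1 of its 2 probe sets. Beside Mrps18b, the gene Ppp1r10, a regulatory subunit of protein phosphatase 1, did not pass (0.12, SE 0.11, limma adjusted p = 0.393).

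**Figure D4:**
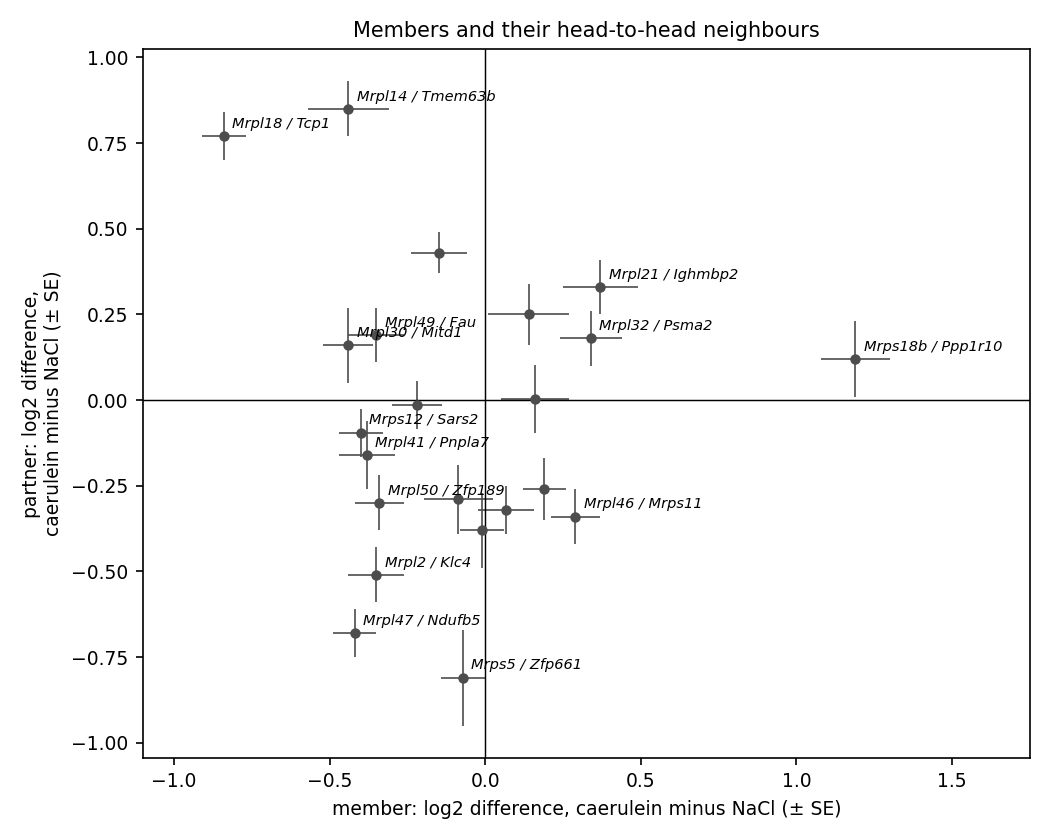
Log2 difference of each member against that of its head-to-head neighbour, both with standard errors, for the 22 measured pairs. Mrpl18 with Tcp1 (-0.84 and 0.77) and Mrpl14 with Tmem63b (-0.44 and 0.85) lie in the upper left quadrant, and Mrpl46 with Mrps11 (0.29 and -0.34) in the lower right.

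The promoter windows of the 2 largest rises, of the deepest fall in each subunit, and the window of Mrps11, which holds the Mrpl46 start and overlaps part of the Mrpl46 window, are shown because they belong to members that moved furthest or to neighbours that moved in opposite directions. Each runs 5′ to 3′ on the gene's strand from 250 bases before to 50 bases after the start, and capitals mark matches to 4 motifs searched on both strands. These were CCGGAAG (ETS/GABP core), GCATGCG (NRF1 half-site), AAGATGG (YY1 core) and CACGTG (E-box).
Mrps30 promoter (GRCm38.p6, chr13:118387203-118387502, minus strand): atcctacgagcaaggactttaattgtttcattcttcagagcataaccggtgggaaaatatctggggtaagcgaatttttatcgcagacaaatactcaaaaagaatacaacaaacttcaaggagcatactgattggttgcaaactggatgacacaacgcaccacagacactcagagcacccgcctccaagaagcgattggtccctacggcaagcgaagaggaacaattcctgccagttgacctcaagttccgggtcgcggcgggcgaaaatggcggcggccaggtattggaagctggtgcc
Mrps18b promoter (GRCm38.p6, chr17:35916391-35916690, minus strand): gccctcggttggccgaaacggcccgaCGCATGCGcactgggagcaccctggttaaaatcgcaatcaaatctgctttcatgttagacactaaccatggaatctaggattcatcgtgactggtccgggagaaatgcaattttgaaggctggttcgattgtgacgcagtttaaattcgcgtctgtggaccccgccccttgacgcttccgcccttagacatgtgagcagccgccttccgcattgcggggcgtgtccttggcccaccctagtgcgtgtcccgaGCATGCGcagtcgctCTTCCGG
Mrps21 promoter (GRCm38.p6, chr3:95871465-95871764, minus strand): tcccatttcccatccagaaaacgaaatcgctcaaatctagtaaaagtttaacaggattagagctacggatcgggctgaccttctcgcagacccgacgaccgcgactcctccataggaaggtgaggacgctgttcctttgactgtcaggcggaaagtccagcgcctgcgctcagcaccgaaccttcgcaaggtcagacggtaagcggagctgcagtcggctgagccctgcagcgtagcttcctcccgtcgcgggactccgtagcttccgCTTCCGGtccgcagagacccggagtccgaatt
Mrpl18 promoter (GRCm38.p6, chr17:12916042-12916341, minus strand): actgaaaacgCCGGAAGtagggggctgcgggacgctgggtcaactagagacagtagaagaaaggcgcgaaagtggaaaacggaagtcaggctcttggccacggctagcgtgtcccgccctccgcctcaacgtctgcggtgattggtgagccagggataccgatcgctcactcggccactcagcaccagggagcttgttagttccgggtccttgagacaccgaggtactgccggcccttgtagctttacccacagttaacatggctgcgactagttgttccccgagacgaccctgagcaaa
Mrps11 promoter (GRCm38.p6, chr7:78782881-78783180, plus strand): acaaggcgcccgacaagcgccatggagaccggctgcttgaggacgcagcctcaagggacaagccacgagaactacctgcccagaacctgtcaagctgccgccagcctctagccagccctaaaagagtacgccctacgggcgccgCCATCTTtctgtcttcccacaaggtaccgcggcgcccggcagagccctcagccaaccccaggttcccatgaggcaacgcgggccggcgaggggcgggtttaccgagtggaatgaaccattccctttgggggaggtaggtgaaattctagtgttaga

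The Mrps18b window held 3 matches to the NRF1 half-site, of which 2 overlap on opposite strands, and 1 to the ETS/GABP core at its very end. The Mrps21 and Mrpl18 windows held 1 ETS/GABP match each. That of Mrpl18 lies at the far end of its window, about where Tcp1 starts, 238 bases from the Mrpl18 start. The Mrps11 window held 1 YY1 match outside the stretch it shares with the Mrpl46 window, and the Mrps30 window none of the 4 motifs. Over 74 promoter windows of members, the ETS/GABP core was found in 25 (33.8%) against 11.6% of 21263 coding promoters of the same length. The YY1 core was in 13 (17.6%, against 6.24%), the NRF1 half-site in 8 (10.8%, against 4.44%) and the E-box in 7 (9.46%, against 7.84%). By gene, the ETS/GABP core was found for 5 of 13 higher, 7 of 28 lower and 13 of 27 other members. The NRF1 half-site was found for 4, 0 and 4 of them. The windows of members had a median GC content of 58.5% against 56.3%. A match is a description of letters and not a measured binding site.

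Several factors that act on nuclear genes of mitochondria changed by more than most members. All 11 regulators on the list passed, against 54.6% of all named genes, 7 higher and 4 lower. Scaled to the reference genes, 4 were higher and 5 lower. Pprc1, a growth-responsive coactivator of the PGC-1 family, was 3.91-fold higher (log2 1.97, SE 0.10, limma adjusted p = 9.8e-09), from 6.32 ± 0.13 to 8.29 ± 0.20 (SD). Gabpb1, a subunit of the ETS factor GABP, was 2.75-fold higher (log2 1.46, SE 0.08, limma adjusted p = 1.7e-08), and Nrf1, the nuclear respiratory factor, 2.16-fold higher (log2 1.11, SE 0.08, limma adjusted p = 2.5e-07). Against this majority, the coactivator Ppargc1a was 1.53-fold lower (log2 -0.61, SE 0.08, limma adjusted p = 6.8e-05). It read at most 4.96, below all array medians, so its values may hold background signal.

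The factors that build and run the mitoribosome also included rises and falls. Of 29 assembly and rRNA modification factors 6 were higher (20.7%) and 10 lower (34.5%), against 20.3% and 34.3% of all named genes. Their median difference was -0.044, and with an equal array median 10 were higher and 4 lower. The pseudouridine synthase gene Rpusd4 was 1.90-fold higher (log2 0.93, SE 0.09, limma adjusted p = 3.4e-06) and Mterf3 1.65-fold higher (log2 0.72, SE 0.12, limma adjusted p = 0.000373). Tfb1m, the methyltransferase of the small subunit rRNA, was 1.85-fold lower (log2 -0.89, SE 0.16, limma adjusted p = 0.000689). Of 15 translation factors 1 was higher (6.67%) and 4 lower (26.7%). With an equal array median 3 were higher and 2 lower, and under the other 4 rescalings 0 were higher. Among the lower ones were the recycling factor Gfm2 (log2 -0.58), Guf1 and the release factor homologue Mtrf1 (both -0.46). Guf1 read at most 5.17 and Mtrf1 at most 4.69, below all array medians, so their values may hold background signal. The elongation factor Tufm was the single rise (log2 0.24, SE 0.09, limma adjusted p = 0.0499), a call that ended under those 4 rescalings.

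Of 4 mitoribosomal proteins with other symbols, Ptcd3 was higher (log2 0.41, SE 0.09, limma adjusted p = 0.00342), and Dap3, Chchd1 and Gadd45gip1 did not pass. Of 16 mitochondrial aminoacyl-tRNA synthetases 8 were lower, against 34.3% of all named genes, and 3 to 15 were lower under the 5 rescalings. They were led by Nars2 (log2 -0.73, SE 0.11, limma adjusted p = 0.000157) and Lars2 (-0.46). Yars2, for tyrosine, was the exception at 2.65-fold higher (log2 1.41, SE 0.10, limma adjusted p = 2.0e-07). Of 10 genes for mitochondrial DNA maintenance and transcription 4 were higher and 2 lower, or 5 and 0 with an equal array median and 0 and 7 when scaled to the reference genes. The largest differences were those of the polymerase gene Polg (0.71), Tfb2m (0.61) and Tfam (0.55) against Mgme1 (-0.36). Tfam read at most 5.17, below all array medians. Of 24 protein import genes 12 were higher (50.0%) and 7 lower (29.2%), against 20.3% and 34.3% of all named genes. Their median level was 7.12. Among all named genes with a mean level from 7 to below 8, 54.0% were higher and 23.4% lower. Scaled to the reference genes, 3 import genes were higher and 18 lower. The import motor Hspa9 (log2 1.59) and the processing peptidase subunit Pmpca (1.35) rose most, followed by Timm8a1 (1.07), and Tomm6 fell most (-0.91).

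**Figure D5:**
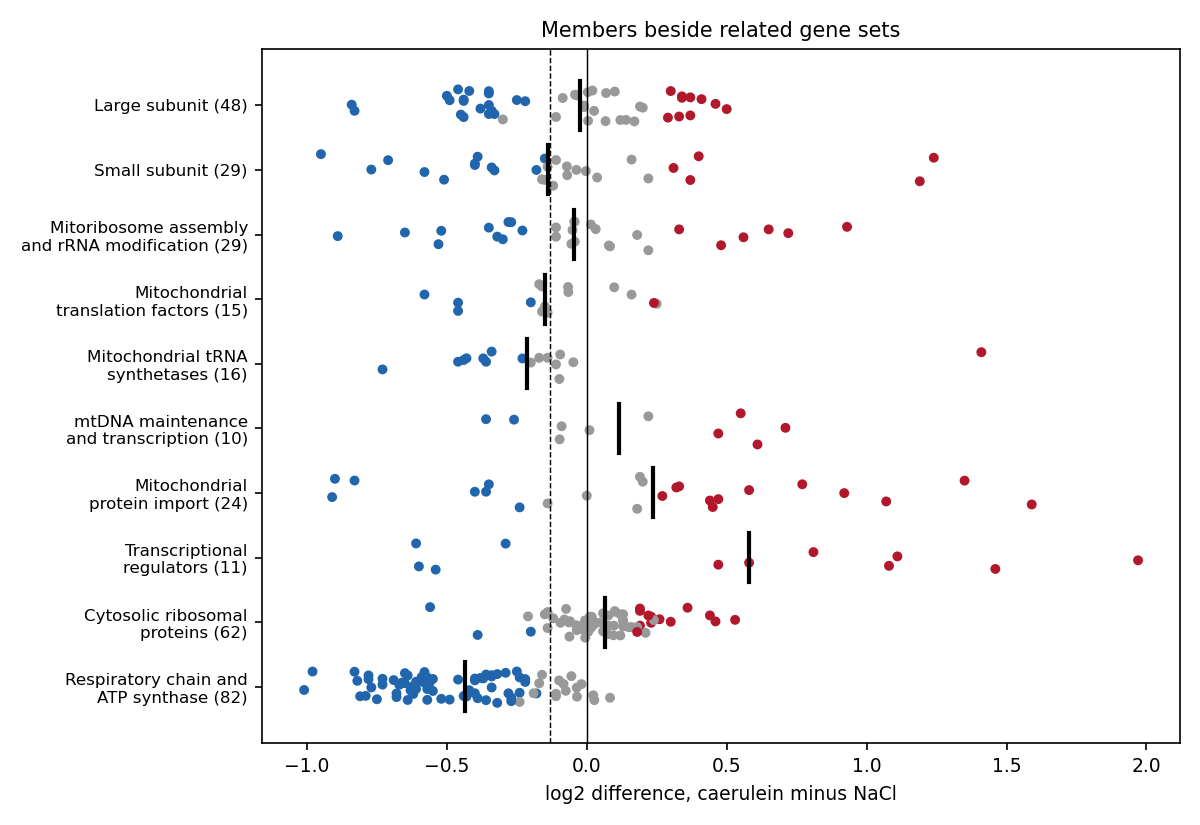
Log2 differences of the genes in each set (points, coloured red for higher, blue for lower and grey for not past the threshold; number of genes in brackets; black bars are medians, the dashed line is the median of all named genes, -0.13). The members spread to both sides, whereas the respiratory chain lies to the left (median -0.43) and the cytosolic ribosomal proteins crowd near 0 (median 0.066).

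The complexes that mitoribosomes help to make and the cytosolic ribosome are given for comparison. Of 82 nuclear-encoded subunits of the respiratory chain and ATP synthase 66 were lower (80.5%) and 0 higher (median -0.43). Among all named genes 34.3% were lower and 20.3% higher. Under the 5 rescalings 45 to 82 of the subunits were lower, against 14.1% to 86.7% of all named genes. Ndufb9 of complex I fell most (log2 -1.01, SE 0.07, limma adjusted p = 8.3e-08). Of 62 cytosolic ribosomal proteins 13 were higher, 3 lower and 46 did not pass (median 0.066), against 20.3% higher and 34.3% lower among all named genes. The set was taken by symbol and holds Rps19bp1, which encodes a protein that binds ribosomal protein S19 and did not pass (0.15), and the retrogene Rps23rg1, which did not pass either (-0.12). Differences ran from Rpl10l (-0.56) to Rps20 (0.53). The 3 lower genes were Rpl10l, Rps27l (-0.39) and Rpl39l (-0.20), whose symbols mark them as ribosomal protein-like genes. Rpl39l read at most 4.30, below all array medians. The direction of the set turned with the scaling. With an equal array median 30 were higher and 1 lower, and on requantiled arrays 3 and 26. Scaled to the reference genes, 0 were higher and 61 lower. These sets are described side by side, and the differences between them were not tested. Transcripts encoded by mitochondrial DNA, the templates of the mitoribosome, were not analysed here.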

How the data were processed

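Affymetrix arrays measured biotin-labelled total RNA of whole pancreas, and degraded RNA had been excluded beforehand, per the labels' protocols. Expression was deposited by the authors as log2 values, 1 per probe set and array (35556 probe sets, 11 arrays). Per the submitters' processing notes RMA, oligo and limma were used, without versions or a genome build in the sources used here. RMA normally includes background correction, quantile normalisation and probe summary, and can compress changes. No detection calls, scan dates or batches were used, so a dim value may be background, and precision rests on how many arrays there are.

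Samples were grouped by their titles. The labels do not tie each sample to a mouse of its own, so the p-values reflect only spread among these samples, which may be technical. The groups were fitted without covariates by lmFit and eBayes (limma 3.58.1, R 4.3.3; two-sided), with Benjamini-Hochberg adjustment over all probe sets, and the fit was tested on simulated data. All 77 members matched the RefSeq gene table of GRCm38.p6 by Entrez identifier with the same symbol, and 68 had a promoter there. The table was used for names, chromosomes and neighbours.

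The members and lists were chosen with earlier results of these data known. The text names, per subunit, the 6 largest rises and 6 largest falls past the threshold and the smallest difference, members with a known role, and members whose probe sets disagree. From each pathway list it names the 3 largest changes past the threshold and the largest against the majority, and from the comparison sets the largest rise and fall. Pair partners and the other members listed were named after their values were seen. Alternatives were 5 rescalings, a trended robust variance prior, array weights, leaving out the dimmer 50 percent of probe sets, averaging a gene's probe sets, blocking on replicate number, each array left out, other subunit assignments and, added with the data in view, probe sets checked by their neighbours.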

Additional observations from a re-analysis of the deposited data

Results flagged for a closer look

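Among 84 groups of arrays tested (40 named members and both subunit means, in each treatment), 6 held an array far from the others of its group, and chance alone flags about 1 in 20 groups. Mrpl42 had 1 such array in each treatment, with 5.42 on NaCl replicate 5 against 4.72 to 4.91 on the others, and 4.76 on caerulein replicate 6 against 3.82 to 4.09. Mrps17 was at 6.06 on NaCl replicate 2 and at 5.69 to 5.80 on the other NaCl arrays. Mrps18c was at 7.65 on NaCl replicate 4 against 7.11 to 7.23, and without that array its difference was -0.020. Mrps31 was at 5.70 on caerulein replicate 3 against 5.90 to 5.96. Mrps6 was at 6.39 on caerulein replicate 1 against 6.01 to 6.13, and without that array its difference was 0.25 (limma adjusted p = 0.0124).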

How the results depend on the processing

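The scaling between arrays was the choice that moved the counts. As deposited 10 large subunit genes were higher and 19 lower, and 5 small subunit genes were higher and 12 lower, with medians of -0.022 and -0.14. With an equal array median 7 large and 6 small subunit genes were lower, and the medians were 0.12 and 0.0073. With an equal scaling list mean 0 large subunit genes were higher and 48 lower, 2 small subunit genes were higher and 27 lower, and the medians were -0.78 and -0.90. The medians were -0.084 and -0.20 with equal 75th percentiles, and -0.15 and -0.19 after a second quantile normalisation. With Mrps30 and Mrps18a moved to the large subunit and Mrps36 left out, 3 small subunit genes were higher. Among named members, the sign turned with an equal scaling list mean for Mrpl10 and Mrpl11 (both -0.76), Mrpl44 (-0.57), Mrps22 (-0.54) and Mrps27 (-0.60), none of which passed as deposited. It also turned for the called rises of Mrpl3 (-0.42), Mrpl19 (-0.26), Mrpl21 (-0.39), Mrpl32 (-0.42), Mrpl33 (-0.30), Mrpl35 (-0.39), Mrpl38 (-0.35), Mrpl45 (-0.46), Mrps6 (-0.45), Mrps17 (-0.36) and Mrps18a (-0.39). After a second quantile normalisation it turned for Mrpl10 (-0.27).

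With 1 array left out, 8 to 11 large subunit genes were higher and 18 to 19 lower, and 5 to 6 small subunit genes were higher and 8 to 12 lower. The lowest small subunit count of falls, 8, came without NaCl replicate 3. The median differences ranged from -0.056 to -0.0021 and from -0.15 to -0.11. Same-numbered samples did not deviate together (correlations of -0.052 to 0.06), and 2 of 5 NaCl arrays correlated best with the caerulein array of their own number. With the replicate block 9 large subunit genes were higher and 17 lower, and 5 small subunit genes were higher and 9 lower. The variance prior, array weights, dim filter, mean of probe sets and checked probe sets left all 4 counts within 1.5 times of those as deposited. The dim filter kept 46 large and 28 small subunit genes, without Mrpl33, Mrpl42 and Mrps36.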
